A study of Homo sapiens with 9 samples.

Results

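The zinc finger genes of chromosome 19 are the protein-coding genes of that chromosome, in the GENCODE annotation of GRCh38, whose symbol starts with ZNF. There were 249 of them among 1476 protein-coding genes of chromosome 19, and the other 1227 served as the comparison. γH2AX binding in their bodies was taken from 8 ChIP-seq peak lists of 1 human B-lymphocyte line (GM07027 in the study's methods, GM09027A in the labels), with 2 replicates in each of 4 conditions. Cells were left untreated or were exposed for 24 h to 0.1 μg/mL aphidicolin (APH), 2 mM hydroxyurea (HU) or 200 μM methyl methanesulfonate (MMS), and the untreated cells were the only control group. γH2AX is histone H2AX phosphorylated next to broken or stalled DNA. APH inhibits replicative DNA polymerases, HU depletes the nucleotide pool by inhibiting ribonucleotide reductase, and MMS alkylates the bases of the template. Peaks had been called for each replicate against input DNA with a p-value threshold of 0.001, so each list is 1 measurement. The series holds 1 input library, which all lists share. All lists come from a single cell line, so the spread between replicates says nothing about other cells.

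Most of these genes encode KRAB zinc finger proteins, which bind DNA through a row of C2H2 zinc fingers and recruit the co-repressor TRIM28 (KAP1) through the KRAB domain. TRIM28 brings the methyltransferase SETDB1 and the HP1 proteins, and the H3K9me3 chromatin so formed silences retroelements. The genes arose by tandem duplication and lie in clusters, and their last exons are known to carry H3K9me3 themselves. The annotation was checked against the sequence. Consecutive fingers are joined by a conserved linker of threonine, glycine, glutamate, lysine and proline, and a 6-frame translation of chromosome 19 held 1842 exact copies of that linker. Of these, 1658 (90.0%) lay in the bodies of the 249 genes, and 216 of the genes held at least 1 copy. The 18 C2H2 genes of the chromosome with other names, such as the ZSCAN and ZBTB genes, were counted among the other genes.

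The ZNF bodies covered 7.55 Mb and the other bodies 26.9 Mb, of which 1044 kb was shared where genes overlap. The ZNF genes were longer (median 26.1 kb against 13.8 kb) and poorer in G and C (43.2% against 51.6% of the bases). The share of positions at which a 100-base word occurs once on the chromosome was 99.1% in the ZNF bodies and 99.2% in the others. Only exact words on chromosome 19 were compared, so near-identical copies and copies on other chromosomes pass as unique. The share thus does not measure how many reads passed the mapping-quality filter in either set. Neighbours with at most 500 kb between them formed 11 clusters of 3 or more genes, which held 238 of the 249 genes (95.6%). The other 11 genes stood alone or in pairs.

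Stretches of GRCh38 sequence from 3 of the genes show what the peaks in these genes lie on. The first 2 were the intervals in ZNF bodies, outside any UTR and with at least 100 bases in common, that both replicates of APH and of HU called with the highest mean fold enrichment. Each was cut to 300 bases around the middle of the common part and is written along the plus strand, with the bases that both replicates called in capitals. Both printed windows were intronic, although the peaks in ZNF541 also reach into coding exons. The APH interval lay in ZNF837 (chr19:58373776-58374075) and the HU interval in ZNF541 (chr19:47549680-47549979). The last was coding sequence of the finger array of ZNF77, along its own minus strand (chr19:2933970-2934269), under a peak of HU replicate 1, with exact copies of the linker codons in capitals.
ZNF837 with APH: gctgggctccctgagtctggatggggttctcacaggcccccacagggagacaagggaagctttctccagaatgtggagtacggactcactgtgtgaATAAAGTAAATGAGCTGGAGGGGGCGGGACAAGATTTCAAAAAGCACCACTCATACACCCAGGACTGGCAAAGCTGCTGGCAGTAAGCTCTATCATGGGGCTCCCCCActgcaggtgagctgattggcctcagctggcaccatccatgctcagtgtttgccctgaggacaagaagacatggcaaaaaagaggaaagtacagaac
ZNF541 with HU: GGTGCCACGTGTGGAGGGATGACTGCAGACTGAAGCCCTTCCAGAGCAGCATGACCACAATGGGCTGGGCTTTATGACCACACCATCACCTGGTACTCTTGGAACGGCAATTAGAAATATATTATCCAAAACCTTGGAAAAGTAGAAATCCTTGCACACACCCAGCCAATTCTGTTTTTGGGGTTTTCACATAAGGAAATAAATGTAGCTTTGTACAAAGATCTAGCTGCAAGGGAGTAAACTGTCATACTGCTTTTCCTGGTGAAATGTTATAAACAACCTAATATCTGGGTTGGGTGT
ZNF77 finger array with HU: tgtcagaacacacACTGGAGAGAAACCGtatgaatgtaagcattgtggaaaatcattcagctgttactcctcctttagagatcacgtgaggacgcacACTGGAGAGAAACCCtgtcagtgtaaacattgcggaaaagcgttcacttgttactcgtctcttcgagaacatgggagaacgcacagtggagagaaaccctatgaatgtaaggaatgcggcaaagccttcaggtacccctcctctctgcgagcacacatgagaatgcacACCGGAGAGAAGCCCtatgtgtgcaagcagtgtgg
The common part was 108 bases wide in ZNF837 and 1264 in ZNF541. Fold enrichment over input was 2.57 and 3.10 in the APH replicates and 2.99 and 3.03 in the HU replicates. Only the HU interval had q-values below 0.05 in both replicates (0.00737 and 0.0201). The ZNF77 peak held 5 copies of the linker, 3 of them in the printed window, and its q-value was 0.0549. The only untreated peak in ZNF541, in replicate 1, overlapped the printed HU window.

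γH2AX peaks were sparser in the zinc finger genes than in the other genes of chromosome 19 in each of the 8 lists. Without treatment the ZNF bodies held 9 and 4 peaks, against 48 and 46 with APH, 176 and 149 with HU, and 67 and 51 with MMS. Per Mb of body this came to 1.19 and 0.530 without treatment, 6.36 and 6.09 with APH, 23.3 and 19.7 with HU, and 8.87 and 6.75 with MMS. The other genes held 3.13 and 2.53 peaks per Mb without treatment, 15.2 and 7.90 with APH, 86.0 and 81.4 with HU, and 13.6 and 8.12 with MMS. The HU lists held the most peaks in both sets of genes, and the APH and MMS lists lay between them and the untreated lists.

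Dividing the density in ZNF genes by that in the other genes, with 0.5 added to each peak count, gave ratios of 0.400 and 0.234 without treatment, 0.422 and 0.778 with APH, 0.272 and 0.243 with HU, and 0.658 and 0.838 with MMS. The mean ratio was 0.317 ± 0.117 without treatment, 0.600 ± 0.252 with APH, 0.257 ± 0.0202 with HU and 0.748 ± 0.127 with MMS (SD, n = 2). The exact 95% counting interval of the ratio reached 1 in APH replicate 2 (0.548 to 1.07) and in MMS replicate 2 (0.601 to 1.13), and stayed below 1 in the other 6 lists. Over the 8 lists the mean log2 ratio was −1.23 (SD 0.75), with 8 of 8 lists below 0 (two-sided exact permutation of the signs, p = 0.00781, the lowest value possible with 8 lists, adjusted p = 0.0273 over 7 tests). The 8 lists share an input and a cell line, so this p-value does not cover a bias common to them. The same limit holds for the other tests over the 8 lists below. When only the other genes inside the spans of the 11 clusters were used for comparison, the mean log2 ratio was −0.53 (exact permutation p = 0.0156) and the mean HU ratio rose from 0.257 to 0.726.

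**Figure D1:**
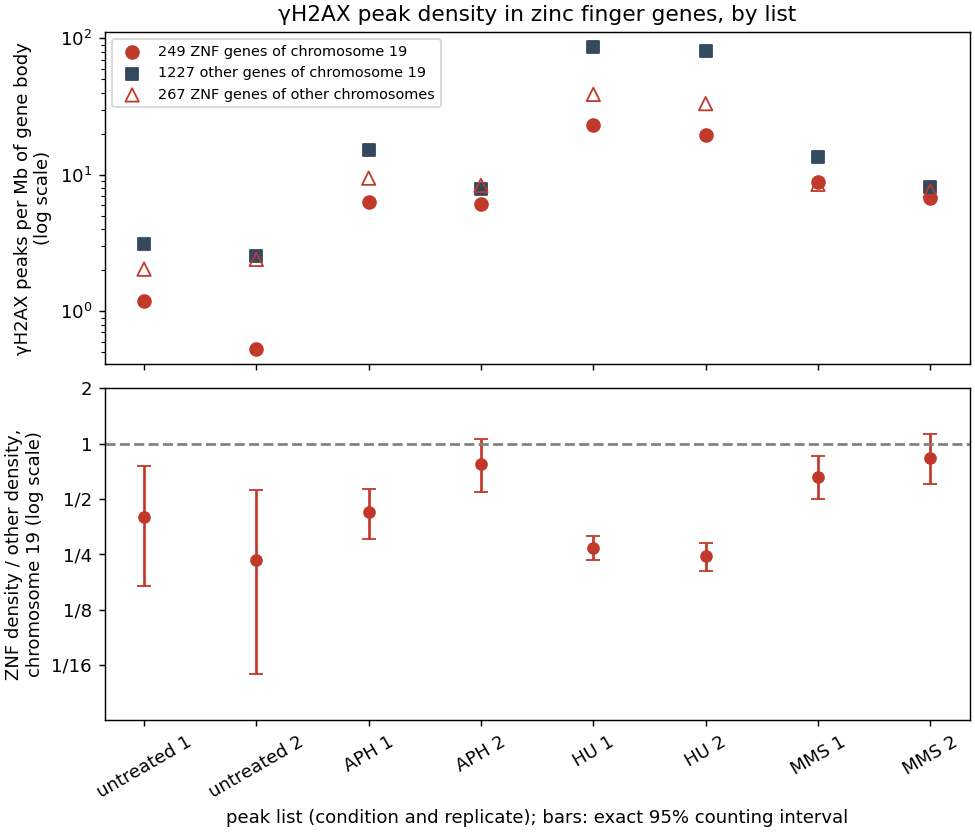
Upper panel, γH2AX peaks per Mb of gene body (log scale) in each peak list, for the 249 ZNF genes of chromosome 19 (circles), the 1227 other genes of chromosome 19 (squares) and the 267 ZNF genes of other chromosomes (triangles). Lower panel, ratio of ZNF to other density on chromosome 19 (log scale) with exact 95% counting intervals, which reach the dashed line at 1 only in APH replicate 2 and MMS replicate 2, while the HU lists lie at 0.272 and 0.243.

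Set against untreated cells, peak density in the ZNF genes was 7.23 times higher with APH, 25.0 times with HU and 9.08 times with MMS, on the summed peaks of both replicates. In the other genes the same comparison gave 4.08, 29.6 and 3.83. The log2 density ratio was 0.91 above untreated with APH, 0.25 below it with HU and 1.28 above it with MMS. The test cannot decide any of these, because 2 lists against 2 cannot give an exact permutation p below 0.333 (p = 0.333, 1 and 0.333). Both APH and both MMS ratios lay above both untreated ratios, and both HU ratios lay between the untreated ones. All 3 comparisons use the same untreated lists with 9 and 4 ZNF peaks. All 6 treated lists against the 2 untreated lists differed by 0.65 (exact permutation p = 0.25, adjusted p = 0.389). The ratio was lower in both HU lists (highest 0.272) than in the 4 APH and MMS lists (lowest 0.422). This difference of −1.34 on the log2 scale was tested after the values were seen and reached the smallest p that 2 lists against 4 allow (exact permutation p = 0.0667). The order depended on the comparison genes: against the other genes inside the clusters the mean ratio was 0.726 with HU, 0.652 with APH and 0.947 with MMS.

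Against the other genes of their own chromosomes, ZNF genes of chromosome 19 had lower ratios than ZNF genes elsewhere in all 8 lists. With MMS the densities themselves were alike. The 267 ZNF genes of the other chromosomes held 2.04 and 2.40 peaks per Mb without treatment, 9.47 and 8.38 with APH, 38.9 and 33.3 with HU, and 8.52 and 7.65 with MMS. Their ratio to the other protein-coding genes of those chromosomes ran from 1.07 in untreated replicate 1 to 1.43 in MMS replicate 2. Those other genes held 1.94 and 1.77 peaks per Mb without treatment, 7.62 and 6.14 with APH, 35.3 and 30.6 with HU, and 6.14 and 5.38 with MMS. The other genes of chromosome 19 held more in each list (86.0 and 81.4 with HU). The difference in ratio therefore also holds the difference between the comparison genes. The log2 ratio on chromosome 19 was lower by 1.55 on average (SD 0.66), with 8 of 8 lists in that direction (exact sign-flip permutation p = 0.00781, adjusted p = 0.0273). The 18 C2H2 genes of chromosome 19 under other names held 5.21 and 10.4 peaks per Mb without treatment and 26.1 and 13.9 with HU.

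Genes with a body below 42% GC had a lower HU peak density than those of the higher GC ranges in both sets, and the ZNF genes lay mostly at the low end. Of the 249 genes, 227 were below the median GC content of the chromosome's genes (53.1%), against 511 of the 1227 others. Under HU, ZNF bodies below 42% GC (97 genes) held 9.04 and 6.30 peaks per Mb, and the 29 other genes of that range held 8.08 in each replicate. Between 42% and 46% the ZNF genes (88) held 23.01 and 18.0 and the others (87) 30.2 in each replicate. Between 46% and 50% the values were 57.3 and 50.2 in 38 ZNF genes and 69.7 and 59.8 in 135 others. At 50% and above they were 56.3 and 71.3 in 26 ZNF genes, which span only 0.267 Mb, and 104.9 and 100.4 in 976 others. The HU ratio thus ran from 0.54 to 1.12 within these ranges, against 0.272 and 0.243 without them. With the other genes limited to those below the median GC content, the mean HU ratio was 0.270. At 50% GC and above the ZNF genes stood above the others with APH (ratios 1.52 and 3.75) and MMS (3.18 and 2.36), on 6 to 13 peaks a list. In the 3 lower ranges, from the lowest upward, the APH ratios were 0.41 and 0.81, 1.01 and 0.82, and 0.84 and 1.30. The MMS ratios there were 0.70 and 0.85, 0.94 and 2.06, and 1.13 and 1.61. Outside HU the ZNF genes were thus not lower in every range. In the conditions other than HU the order along the ranges was less regular: ZNF genes of untreated replicate 2 had 0 peaks in the 2 upper ranges, and the other genes of APH replicate 2 held 8.67, 8.42 and 8.003 peaks per Mb from 42% GC upward. Whether GC content or something that goes with it sets the density was not tested.

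**Figure D2:**
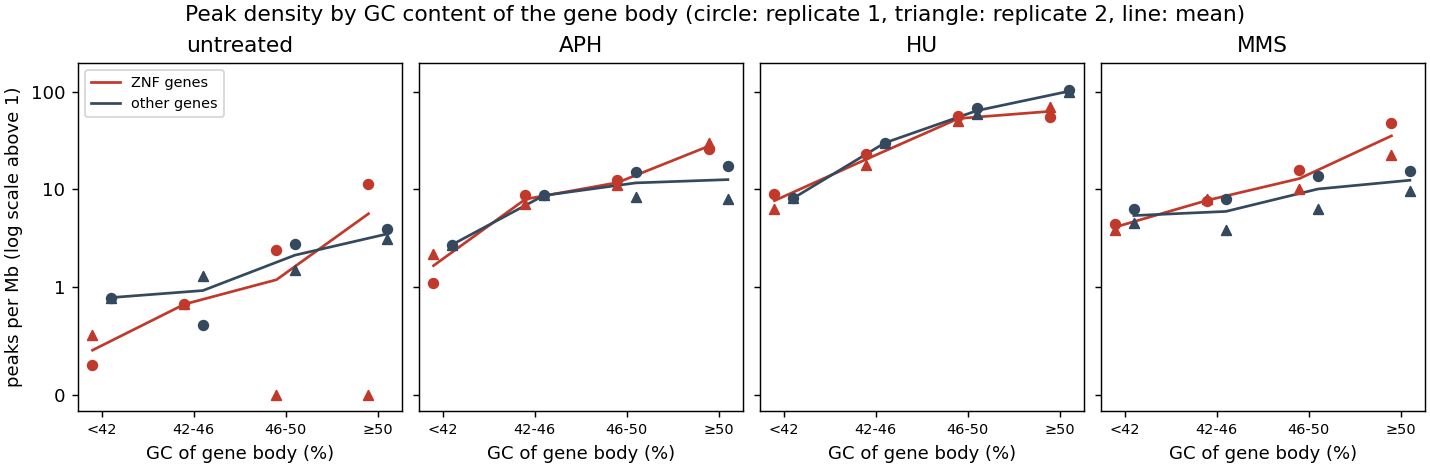
γH2AX peaks per Mb of gene body (vertical axis, log scale above 1) in 4 ranges of body GC content (horizontal axis), with 1 panel per condition, for ZNF genes (red) and other genes of chromosome 19 (blue). Circles and triangles are replicates 1 and 2 and lines their means. Under HU density was lowest below 42% GC in both sets, and in ZNF genes it went from 9.04 and 6.30 peaks per Mb in ZNF genes below 42% GC to 56.3 and 71.3 at 50% and above.

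Across the 11 clusters the mean HU density ran from 2.57 to 105 peaks per Mb. The lowest HU density was in the cluster from ZNF101 to ZNF254 (chr19:19668796-24129968), the largest by span (4.46 Mb), next to the centromere on the short arm, where 37 genes with 1754 kb of bodies held 5 and 4 peaks, or 2.57 ± 0.403 per Mb (SD, n = 2). APH gave 1 and 0 peaks there, MMS 6 and 2, and untreated cells 0 and 1, and 25 of its 37 genes had no peak in any list. The stretch of 14 neighbouring genes from ZNF738 to ZNF728 (chr19:21358930-23003176, 1.64 Mb) contained, bodies and gaps together, 3 peaks in all 8 lists, all with APH. A further run of 7 genes in that cluster, from ZNF486 to ZNF714 (0.958 Mb), contained none. The primate-specific repressors ZNF91, which binds SVA elements, and ZNF93, which binds L1 elements, belong to this cluster: ZNF91 carried 1 peak in untreated replicate 2 and ZNF93 1 peak in HU replicate 2, and neither had any other.

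Low HU density was also found in the ZNF565 to ZNF573 cluster (26 genes, 11 and 2 peaks, 5.77 ± 5.65 per Mb) and in the ZNF175 to ZNF331 cluster of the long arm (40 genes, 10 and 10 peaks, 8.04 per Mb in each replicate). In the latter, ZNF175 alone held 5 and 8 of those peaks, 23 genes had none in any list, and the 9 genes from ZNF534 to ZNF468 (0.429 Mb) spanned no peak at all. Intermediate values came from ZNF414 to ZNF846 (14 genes, 17.3 ± 2.23), ZNF628 to ZNF835 (16 genes, 17.7 ± 5.003), ZNF575 to ZNF180 (23 genes, 21.5 ± 1.45) and ZNF302 to ZNF792 (5 genes, 24.5 ± 11.5). Within ZNF575 to ZNF180 the 13 other genes between the ZNF genes held 39 and 32 HU peaks, or 117 and 96.0 per Mb. The ZNF bodies there held 22.5 and 20.5. In ZNF175 to ZNF331 the other genes also held more (22.8 and 34.3). Elsewhere low HU density was not confined to ZNF bodies. The 3 other genes in ZNF101 to ZNF254 held no HU peak. In ZNF414 to ZNF846 the other genes held 10.98 and 2.75 per Mb, against 15.8 and 18.9 in the ZNF bodies. In ZNF628 to ZNF835 they held 11.5 in each replicate, against 14.2 and 21.2. In ZNF565 to ZNF573 the replicates differed in direction (2.22 and 4.43, against 9.77 and 1.78).

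The highest densities with HU were in ZNF653 to ZNF791 (chr19:11483427-12640098, 26 genes), with 39 and 34 peaks or 55.1 ± 5.34 per Mb, and in the small ZNF554 to ZNF77 cluster (5 genes), with 12 and 5 peaks or 105 ± 60.9 per Mb. ZNF546 to ZNF780A (3 genes, 6 and 2 peaks) gave 46.2 ± 32.6. The 12 other genes inside ZNF653 to ZNF791 held 67.1 and 69.5 peaks per Mb, against 58.9 and 51.3 in the ZNF bodies around them. Only the ZNF554 to ZNF77 cluster lay above the other genes of the chromosome on the mean of both HU replicates (ratio 1.24), and its second replicate lay below them (0.755). Across the 11 clusters the HU densities of the replicates ranked alike (Spearman's rho 0.86), whereas rho was 0.50 without treatment, 0.31 with APH and 0.14 with MMS. The rank correlation with body GC content over the same 11 clusters was 0.56, 0.66, 0.42 and 0.44 in untreated, APH, HU and MMS cells. Clusters of a list share 1 library, and these coefficients are descriptions.

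The cluster at the end of the long arm, from ZNF264 to ZNF446 (chr19:57191500-58481230, 43 genes, 0.136 Mb from the end of the chromosome), held more peaks than any other cluster in 6 of the 8 lists. The exceptions were untreated replicate 2, where 3 other clusters also had 1 peak, and HU replicate 1, where ZNF653 to ZNF791 had more. It counted 4 and 1 peaks without treatment, 25 and 17 with APH, 33 and 37 with HU, and 20 and 12 with MMS. Under APH these were 52.1% and 37.0% of all ZNF peaks of the list, and under HU 18.8% and 24.8%. Relative to the other genes of the chromosome its density was 2.27 and 2.96 times as high with APH, 2.03 times as high in both MMS replicates, and 0.528 and 0.625 times as high with HU. The 22 other genes inside the cluster held 32.9 and 23.2 peaks per Mb with APH, near the 34.4 and 23.4 of the ZNF bodies. Under HU they held 29.0 and 17.4, below the 45.4 and 50.9 of the ZNF bodies. Without the genes from ZNF264 onward the mean ratio of ZNF to other genes was 0.405 with APH, 0.221 with HU and 0.617 with MMS.

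**Figure D3:**
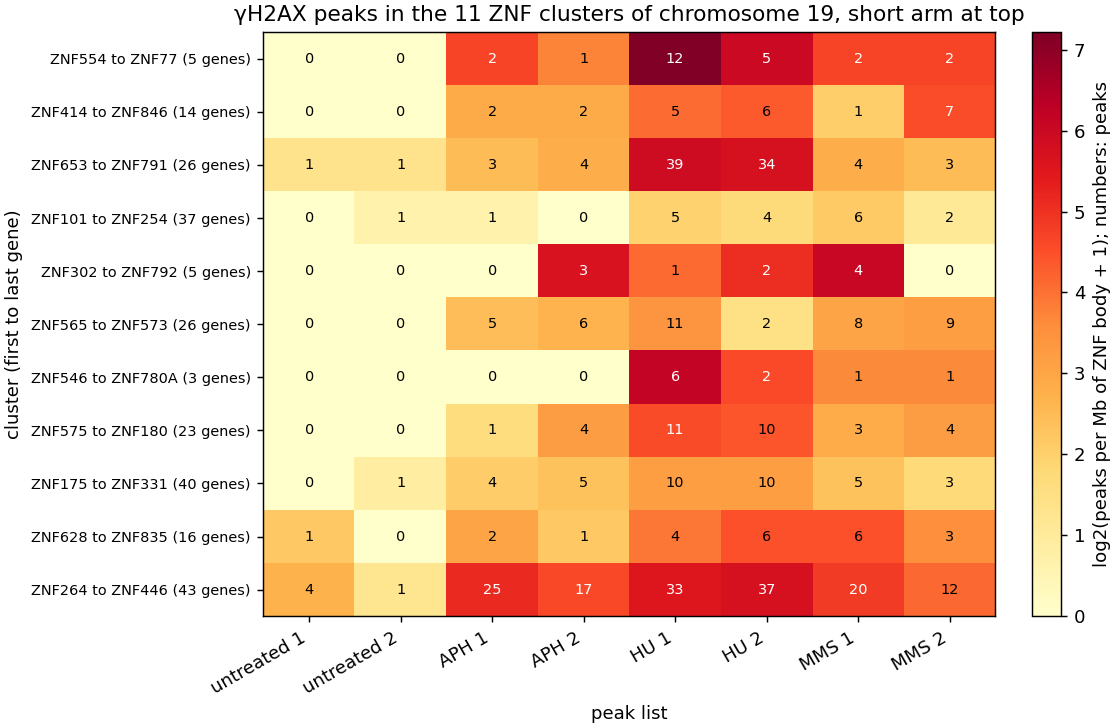
Each row is 1 of the 11 clusters of 3 or more ZNF genes in order along chromosome 19 and each column 1 peak list. Colour gives log2(peaks per Mb of ZNF body + 1) and the number in a cell the count of peaks. The row ZNF101 to ZNF254 stays pale in all lists (5 and 4 peaks with HU), and the bottom row, ZNF264 to ZNF446, is dark in all 6 treated lists.

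HU peaks were denser in genes outside the clusters than in the clustered ones, a difference that was not tested. The 11 genes that stood alone or in pairs held 39 and 31 HU peaks in 0.722 Mb, or 54.0 and 42.9 per Mb, against 20.1 and 17.3 per Mb in the clustered genes. In the APH lists the order was the other way, with 4.15 per Mb in each replicate against 6.59 and 6.30. ZNF541 and ZNF333 supplied 25 of the 39 peaks of HU replicate 1. ZNF536, a regulator of neuronal differentiation and the longest member at 489 kb, held none with HU, 1 and 0 with APH and 2 and 0 with MMS.

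Counted gene by gene, none of the 249 had a peak in both untreated replicates, which allows a share of up to 1.20%, beside 1.36% of all protein-coding genes of chromosome 19. A peak in both APH replicates was found for 12 genes (4.82%, beside 7.59% of all), in both HU replicates for 47 (18.9%, beside 44.8% of all) and in both MMS replicates for 18 (7.23%, beside 7.11% of all). More peaks in both treated replicates than in either untreated one were counted for 11 genes with APH (4.42%, beside 5.56% of all), 45 with HU (18.1%, beside 43.3%) and 17 with MMS (6.83%, beside 4.88%). Losses could not be counted this way, since no ZNF gene had a peak in both untreated replicates. The HU shares were well below the background. The APH shares lay below it by less, and the MMS shares lay near or above it. None of these shares is corrected for body length, and the ZNF genes were longer (median 26.1 kb against 13.8 kb in the other genes). Alike shares therefore do not mean alike peak density. Of the 12 genes called under APH, 7 (58.3%) lay in the cluster at the end of the long arm, which holds 43 of the 249 genes. With HU 10 of the 47 called genes lay there (21.3%), and with MMS 6 of the 18 (33.3%). In all, 94 genes (37.8%) had no peak in any list, against 26.6% of the other genes, and no gene had a peak in more than 6 lists.

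ZNF565 and ZNF805 had a peak in both APH and both MMS replicates. These 2 were 16.7% of the ZNF genes called with APH and 11.1% of those called with MMS, where over all protein-coding genes of chromosome 19 the shared genes were 30.4% and 32.4%. With HU the overlap was 4 of the 12 APH genes (33.3%, beside 78.6% over all) and 4 of the 18 MMS genes (22.2%, beside 73.3% over all). In each case this was 8.51% of the 47 HU genes, beside 13.3% for APH and 11.6% for MMS over all. ZNF805 held 2 and 1 peaks with APH, 2 and 4 with HU and 1 and 1 with MMS. ZNF565 held 1 and 1, 3 and 0, and 2 and 1. Per gene, density in one replicate ranked with that in the other with rho 0.51 with HU (0.68 in the other genes), 0.19 with MMS, 0.16 with APH and −0.03 without treatment, over 249 genes. Counts in single genes with APH, MMS and without treatment were mostly 0 or 1.

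ZNF541 had the most peaks of any member, 16 and 14 with HU in a body of 52.5 kb (chr19:47520690-47573148, minus strand). It encodes a germ-cell protein that works with histone deacetylases in meiosis. It held 1 peak in untreated replicate 1, 1 in APH replicate 2 and none in the other 4 lists. The HU peaks covered 17547 and 16269 bases at 2.50 to 3.32 and 2.69 to 3.23 times input, and 11 of the 16 and 10 of the 14 overlapped a peak of the other replicate. The ZNF541 stretch printed above is 1 of these shared intervals.

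ZNF627 followed with 11 and 12 HU peaks (chr19:11559374-11619161, plus strand) and none in any other list. Of these peaks 3 and 4 were found in the other replicate, and 10 in each replicate were intronic. ZNF333, which has KRAB repressor domains, held 9 and 5 HU peaks and 2 and 2 MMS peaks (chr19:14689801-14733746, plus strand), but no HU peak of 1 replicate overlapped a peak of the other. The HU counts of ZNF333 were thus high in both replicates at different positions, unlike those of ZNF541.

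ZNF584 in the cluster at the end of the long arm held 7 and 8 HU peaks, 3 of each found in the other replicate, beside 2 and 0 with APH. ZNF175, known as a repressor of the HIV-1 promoter in macrophages, had the most HU peaks per kb of the genes with a peak in both HU replicates (0.306), with 5 and 8 peaks in 21.2 kb and 4 of each shared. The counts in ZNF555 were 5 and 3. ZNF132, only 7.34 kb long, ranked high with HU and MMS: it held 1 and 0 peaks without treatment, 0 and 2 with APH, 2 and 2 with HU and 2 and 1 with MMS. The histone mRNA processing factor ZNF473, which acts with the U7 particle, had 1 and 0, 2 and 1, 3 and 3, and 0 and 1 peaks in the same order.

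Under APH the highest densities among genes called in both replicates were those of ZNF837 (2 and 2 peaks in 13.4 kb), ZNF256 (1 and 1 in 6.87 kb) and ZNF543 (1 and 1 in 10.3 kb), all in the cluster at the end of the long arm. In ZNF837 1 peak of each replicate coincided, over the 108 bases printed above, and in ZNF256 and ZNF543 the replicates called different positions. Under MMS the leading genes were ZNF132, ZNF416 (1 and 1 in 7.35 kb) and ZNF580 (1 and 1 in 8.46 kb), and in these the replicates shared 514, 505 and 140 bases. The MMS peaks of ZNF580 also lie in the overlapping body of ZNF581, which was called with them. All these APH and MMS peaks had q-values above 0.05, the lowest being 0.132 with APH (ZNF837) and 0.238 with MMS (ZNF416). ZNF274, which recruits SETDB1 to the last exons of ZNF genes, had 1 and 1 peaks with APH, which adjoin with 4 bases in common, 0 and 3 with HU and 1 and 0 with MMS. The L1 repressor ZNF649 had 0 and 1 with HU and 1 and 1 with MMS, and the imprinted gene ZNF331 had 1 peak in untreated replicate 2 and 1 in MMS replicate 1. The longest genes without any peak were ZNF98 (141 kb), ZNF83 (96.5 kb) and ZNF573 (81.5 kb).

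**Figure D4:**
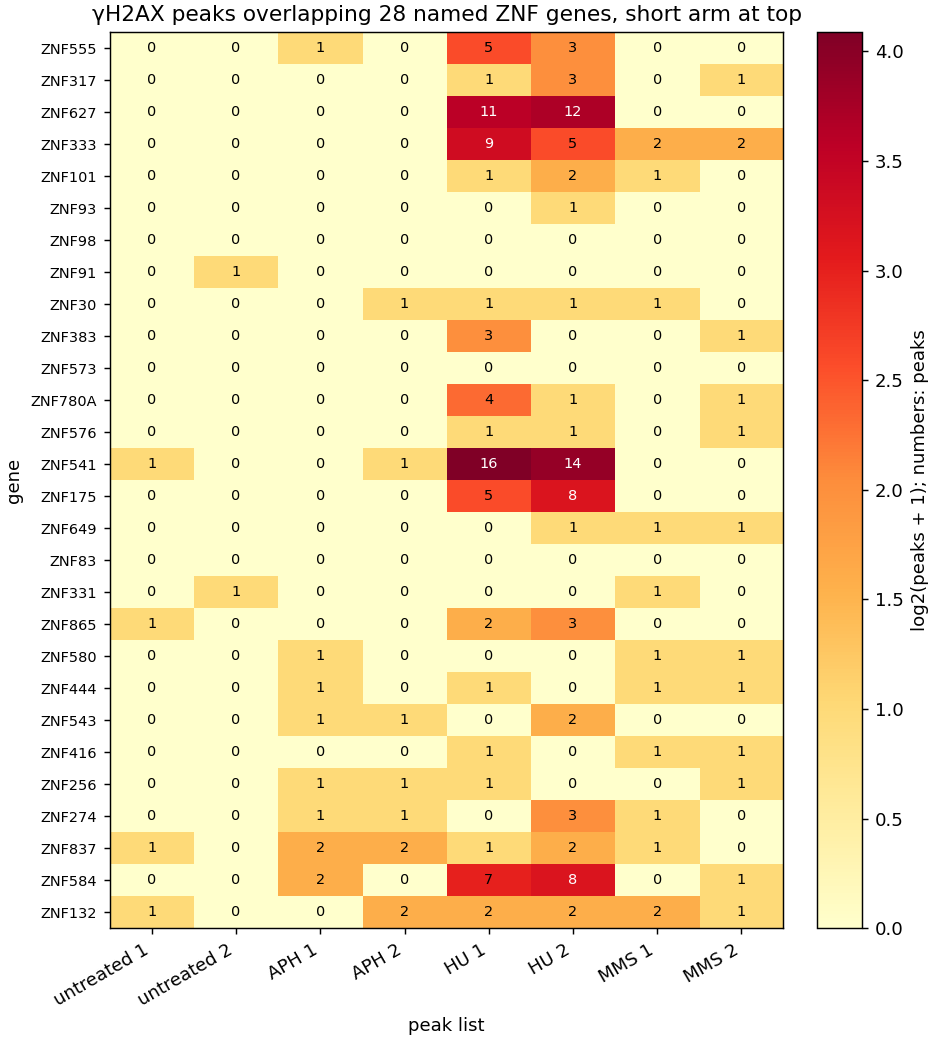
Peaks overlapping each of 28 named ZNF genes (rows, in order along chromosome 19) in each list (columns). Colour gives log2(peaks + 1) and the number the count. The HU columns hold the highest counts (16 and 14 in ZNF541, 11 and 12 in ZNF627), and ZNF98, ZNF83 and ZNF573 are 0 throughout.

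Position within the body was compared next, since the finger array is encoded near the 3′ end. The share of peak midpoints in the downstream part of the body, past 66.7% of its length, was 20% and 25% without treatment, 30% and 25.5% with APH, 27.1% and 26.0% with HU and 28.6% and 17.0% with MMS. Relative to the other genes this was lower by 1.88 percentage points on average (SD 3.63), in 6 of 8 lists (exact sign-flip permutation p = 0.18, adjusted p = 0.389), a difference within the spread between lists. In 5 equal parts from start to end of the body, the HU midpoints in ZNF genes were shared out as 26.0%, 18.7%, 20.5%, 22.1% and 12.7%, and those in the other genes as 22.4%, 22.7%, 19.6%, 18.0% and 17.2%. The linker array in the last exon (3 or more copies) could be placed in 193 genes and measured 205 kb in all. It contained no peak midpoint in 4 of the 8 lists, 3 in HU replicate 1 and 1 in each of the others. Per Mb this was 14.7 in HU replicate 1 and 0 in HU replicate 2, against 23.3 and 19.9 in the rest of the bodies. In the lists with 1 midpoint it was 4.88 per Mb, against 6.12 to 8.98. These counts are small, and the difference was not tested. Peaks that covered at least 1 linker copy numbered 8 and 1 with HU, 2 and 4 with APH, 4 and 4 with MMS and none without treatment.

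ZNF30 and ZNF77 were the genes in which peaks with a linker copy occurred in the most lists, 3 each. In ZNF30 these were a peak of HU replicate 1 with 5 copies, a peak of APH replicate 2 with 3 and a peak of MMS replicate 1 with 2. These peaks overlapped one another within chr19:34943848-34944632, and no peak of the untreated lists lay in ZNF30. ZNF77, whose array is printed above, had peaks with a linker in HU replicate 1, APH replicate 1 and MMS replicate 1. Both genes were singled out after their values were seen. None of the replicate pairs of a treatment shared an array peak in them.

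None of the ZNF promoters that could be examined carried a peak. RefSeq promoter windows around the gene start could be matched for 218 of the 249 genes, and 0 of 218 overlapped a peak in any of the 8 lists, which allows a share of up to 1.38% in a list. Of 949 matched promoters of other genes, 33 and 29 (3.48% and 3.06%) overlapped a peak with HU and 0 to 4 in the other lists. Peaks wholly in introns made up 64.8% and 63.1% of the ZNF peaks with HU, 56.2% and 50% with APH, and 58.2% and 66.7% with MMS.

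Height, width and recurrence of the peaks were compared last, as descriptions. In ZNF genes the median fold enrichment of a peak was 2.68 and 2.77 with HU, against 2.79 and 2.85 in the other genes, and the median width was 582 and 697 bases, against 763 and 758. A peak of the other HU replicate was found for 49 of 176 and 48 of 149 (27.8% and 32.2%), against 48.4% and 51.7% in the other genes. A q-value of at most 0.05 was reached by 71.6% and 55.7% of the ZNF peaks with HU, against 86.5% and 65.5%. Under APH it was reached by 0 of 48 and 1 of 46 ZNF peaks, and under MMS and without treatment by none. The recurring share with APH was 12.5% and 10.9%, with MMS 5.97% and 7.84%, and without treatment 0 in both. The intervals and limits cover counting error only, and read depth is unknown for all 8 lists.

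The genes of the co-repressor pathway through which these proteins act were read from a list of 19. A peak in both HU replicates was found for 12 of them (63.2%, beside 46.7% of all 19970 protein-coding genes), in both MMS replicates for 4 (21.1%, beside 12.9%), in both APH replicates for 1 (5.26%, beside 13.3%) and in both untreated replicates for 1 (5.26%, beside 2.93%). The last 2 were both DNMT1, the maintenance DNA methyltransferase on chromosome 19, with 2 and 1 peaks without treatment, 3 and 1 with APH, 14 and 16 with HU and 3 and 0 with MMS. SETDB1, the H3K9 methyltransferase of the pathway, held 11 and 10 HU peaks and none in the other lists. The deacetylase HDAC1 held 9 and 10 with HU, and the HP1 genes CBX1 and CBX5 each 8 and 6. UHRF1, a partner of DNMT1, had 5 and 9. TRIM28 itself, a short gene of 6.66 kb just beyond the last ZNF cluster, had 2 and 0 with HU and none elsewhere. DAXX, EHMT2 and SUV39H1, of 4.46, 17.9 and 13.5 kb, held no peak in any list. The 19 genes, of up to 281 kb (ATRX), were not matched in body length to all protein-coding genes. Their shares therefore cannot be read as a trait of the pathway.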

How the data were processed

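The 8 γH2AX ChIP-seq peak lists were used as deposited, 1 per replicate; no file of the input library was used here. To make them, the authors mapped paired-end reads on GRCh38 (Bowtie2), filtered on mapping quality (SAMtools), discarded duplicates and called broad peaks with MACS2 against input at p = 0.001 (versions not given in the sources used here). Each deposited peak carries a score, a fold enrichment (a ratio to input), and a p-value and a q-value, both as −log10. A mapping-quality filter can remove reads from repeated sequence.

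Gene bodies came from GENCODE release 44. A distinct peak was counted where it overlapped the union of bodies by at least 1 bp, and density was taken per Mb. For the ratio of a whole list 0.5 was added to each count. The printed densities, and the ratios by GC range and by cluster, are without that addition. Lists were compared by exact permutation tests with Benjamini-Hochberg adjustment over 7 tests (Python 3.11.15, scipy 1.17.1, Biopython 1.88), and the counting was tested on simulated peaks. The replicates of a condition were separate treatments with separate ChIP, per the study's methods. The labels spell the cell line and antibody differently from the study's methods. The APH dose is that of the labels. Named genes were the 3 densest per condition and the 3 with the most peaks, the leading gene of each cluster, the 3 longest without peaks, 5 of known role, the gene of the strongest shared peak, and the co-repressor list. ZNF473, ZNF536, ZNF565, ZNF805, ZNF30, ZNF77 and the runs of genes without peaks were named after their values were seen. Members and lists were chosen with earlier results of these data known. Alternatives changed how a peak was counted, which peaks, bodies and comparison genes were used, and left out each replicate. The sequence under the shared MMS peak is not reported here.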

Additional observations from a re-analysis of the deposited data

How the results depend on the processing

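The lower density of ZNF genes over the 8 lists kept its direction and stayed past the threshold of 0.05 (exact permutation) under all 11 alternatives (mean log2 ratio −1.61 to −0.53) and without each replicate in turn (−1.36 to −1.10), as did the difference in ratio from ZNF genes of other chromosomes (3 alternatives, −1.55 to −1.52; without each replicate −1.66 to −1.40). None of these alternatives matched the GC content of ZNF and other genes: the GC alternative only limited the other genes to below 53.1% GC. The alternative with lengths in unique 100-base words (mean log2 ratio −1.22) could hardly change the result. The share of such words was 99.1% in ZNF and 99.2% in other bodies, so it is no check on mapping. Within the ranges of GC content the ratio lay on both sides of 1 in every condition. The comparison of treated with untreated lists never passed it. It turned from 0.65 to −0.18 with the stronger 50% of peaks and to −0.062 with the other C2H2 genes as members, and ran from 0.26 to 1.03 without single replicates. The value for HU against untreated turned to 0.50 against other genes inside the clusters and to 0.14 without untreated replicate 1 (−0.64 to 0.14), and over all alternatives it ran from −1.33 (stronger 50% of peaks) to 0.50. The ranges over the alternatives were 0.30 to 1.86 for APH and 0.50 to 2.13 for MMS, and without single replicates 0.47 to 1.35 and 0.89 to 1.67. The mean HU ratio moved to 0.194 with covered bases, 0.193 with the stronger 50% of peaks, 0.216 with peaks of q at most 0.05, 0.155 with peaks found in both replicates, 0.726 against other genes inside the clusters and 0.221 without the genes from the q-terminal cluster onward, the last an alternative chosen after seeing the data. The untreated ratio moved to 0.507 (stronger 50%), 0.178 (both replicates), 0.594 (inside the clusters) and 0.512 (other C2H2 genes), and the MMS ratio to 0.947 (inside the clusters) and 0.617 (without the q-terminal genes). Without 1 replicate the ratios ran from 0.234 to 0.400 without treatment, 0.422 to 0.778 with APH, 0.243 to 0.272 with HU and 0.658 to 0.838 with MMS. With the stronger 50% of peaks, genes with a peak in both replicates numbered 3 with APH, 20 with HU and 5 with MMS, and those above both untreated replicates 2, 17 and 5. The share over all genes of the chromosome was not counted with that filter, so these lower counts cannot be read as particular to ZNF genes. The 3′ share ran from −6.08 to −1.02 points over 3 alternatives and from −2.69 to −1.26 without single replicates. Clusters numbered 13 and 10 with gaps of 250 kb and 1 Mb. The cause of these shifts was not tested. Only the HU lists kept at least 1000 peaks at q at most 0.05, so that filter was not run on the others.

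Same-numbered replicates did not deviate together (r −0.07 to 0.05 over 1476 genes), so the numbers were not taken to pair the lists. With the replicate block the differences stay as they are by construction: 0.65 for treated against untreated, and 0.91, −0.25 and 1.28 for APH, HU and MMS, with exact permutation p-values of 0.3125, 0.5, 1 and 0.5. In the peak lists depth is unknown, and the 9 and 4 peaks of the untreated lists limit every comparison with them.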
